A study of Saccharomyces cerevisiae with 6 samples.

Results

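The genes described here encode proteins of the mitochondrial ribosome of the budding yeast Saccharomyces cerevisiae. They were chosen by name alone: every array probe set whose gene symbol was MRPL, MRPS, MRP or RSM followed directly by a number, which gave 66 of the 5449 genes tested. Of these, 34 were MRPL genes, 9 were MRPS genes, 12 were MRP genes and 11 were RSM genes. The mitochondrial ribosome translates the few messages of the mitochondrial genome, nearly all of which encode core subunits of the respiratory chain and the ATP synthase. Almost all of its proteins are encoded in the nucleus, made in the cytosol and imported, and they join ribosomal RNA made inside the organelle. MRPL stands for a protein of the large subunit, which forms peptide bonds, and most MRPS and RSM proteins belong to the small subunit, which reads the message.

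The study compared a Σ1278b strain labelled as a diploid lacking both copies of PUN1, a gene for a protein of the plasma membrane, with a wild-type Σ1278b diploid, 3 cultures and 3 arrays of each. Both strains had grown at 30 °C to an OD600 of 0.6 and then spent 6 h in SLAD, a low-nitrogen medium with 2% glucose in which diploids of this background form filaments. The labels call the cultures biological replicates and name 1 deletion strain; the number of independent deletion clones behind it is not stated there. All values are log2 array signals, and differences are deletion minus wild type. An array of pooled RNA cannot tell less transcript per cell apart from fewer cells that carry it.

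PUN1 itself had signals of 8.33, 4.83 and 4.93 on deletion arrays 1, 2 and 3, against 13.35, 13.50 and 13.55 on the wild-type arrays (difference -7.43, SE 0.88, limma adjusted p = 0.00169). Deletion array 1 was above background for PUN1, so counts are also given without it. The strains also differed in mating-type genes that neither label mentions. All 7 haploid-specific genes and all 4 alpha-specific genes looked up were higher in the deletion strain, by 3.20 to 7.93. FUS3, a kinase of the mating pathway that is silent in a/alpha diploids, had 12.33, 12.33 and 12.35 on deletion arrays, against 6.01, 5.95 and 6.05 on wild-type arrays. HMRA1, which encodes the a1 repressor of diploids, was at 4.43, 3.98 and 4.34 on deletion arrays, not above background, against 9.05, 8.82 and 9.42 on wild-type arrays. Loss of PUN1 and this difference in mating-type state cannot be told apart in any comparison below. The control for 25S ribosomal RNA varied within both groups, at 9.07, 11.28 and 12.53 on deletion arrays 1, 2 and 3, against 12.81, 9.06 and 8.85 on wild-type arrays 1, 2 and 3.

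All 66 genes had signals well above background, though how specific their probes are was not tested. Each had 1 probe set, and each lay above background on all 6 arrays: the lowest signal of any of them was 9.81, where background, read from probe sets for fission yeast genes, reached at most 5.74. The names were checked against the RefSeq gene table, which gives 64 of the 66 a place in the ribosome's structure, 37 in the large subunit and 27 in the small one. The remaining 2 are RSM22, a methyltransferase-like protein found with the small subunit, and MRP8, whose name came from sequence similarity and whose function is not known. In addition, MRP7, MRP20 and MRP49 are large subunit proteins by annotation, though their symbols do not say so.

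The mitochondrial ribosomal protein genes that passed the test were all lower in the deletion strain. At an adjusted p under 0.05 (limma, over all 5498 yeast probe sets), 9 of 66 fell, 0 rose and 57 did not pass, so that 13.6% were lower. The background share of lower calls was 9.82% of all probe sets and that of higher calls 15.8%. The share of lower calls among these genes was thus near the background, while higher calls, the more frequent direction over the array, were missing. At an unadjusted p under 0.05 (limma), 20 were lower and 0 higher, but no share of all probe sets at that threshold is given here. The count of 20 therefore cannot be set against the shares above. Under any of the 15 alternative settings that were run, 0 were called higher. The differences ranged from -0.29 to 0.12 with a median of -0.06, against a median of 0.02 over all genes tested. The median of the 66 was -0.03 without deletion array 1, -0.10 without deletion array 3 and -0.12 without the 3 arrays of high 25S signal. Of the 66, 49 (74.2%) had a difference below 0, against 45.2% of all genes. The count of lower calls changed when single arrays were left out. It was 4 without deletion array 2, where 5.17% of all probe sets were lower, and 5 without wild-type array 2 (5.69%). In those settings the share over all probe sets thus fell too, from 9.82%. The count was 7 without deletion array 1 or without wild-type array 1, where that share did not fall. It stayed at 9 without deletion array 3 (5.91%) and without wild-type array 3 (6.57%), where the share did fall. Over all probe sets, the split of 868 higher and 540 lower became 722 and 728 after further quantile normalization and 702 and 711 after median centring. Of the 66 genes, 13 were called lower after either step, where 13.2% and 12.9% of all probe sets were lower.

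**Figure D1:**
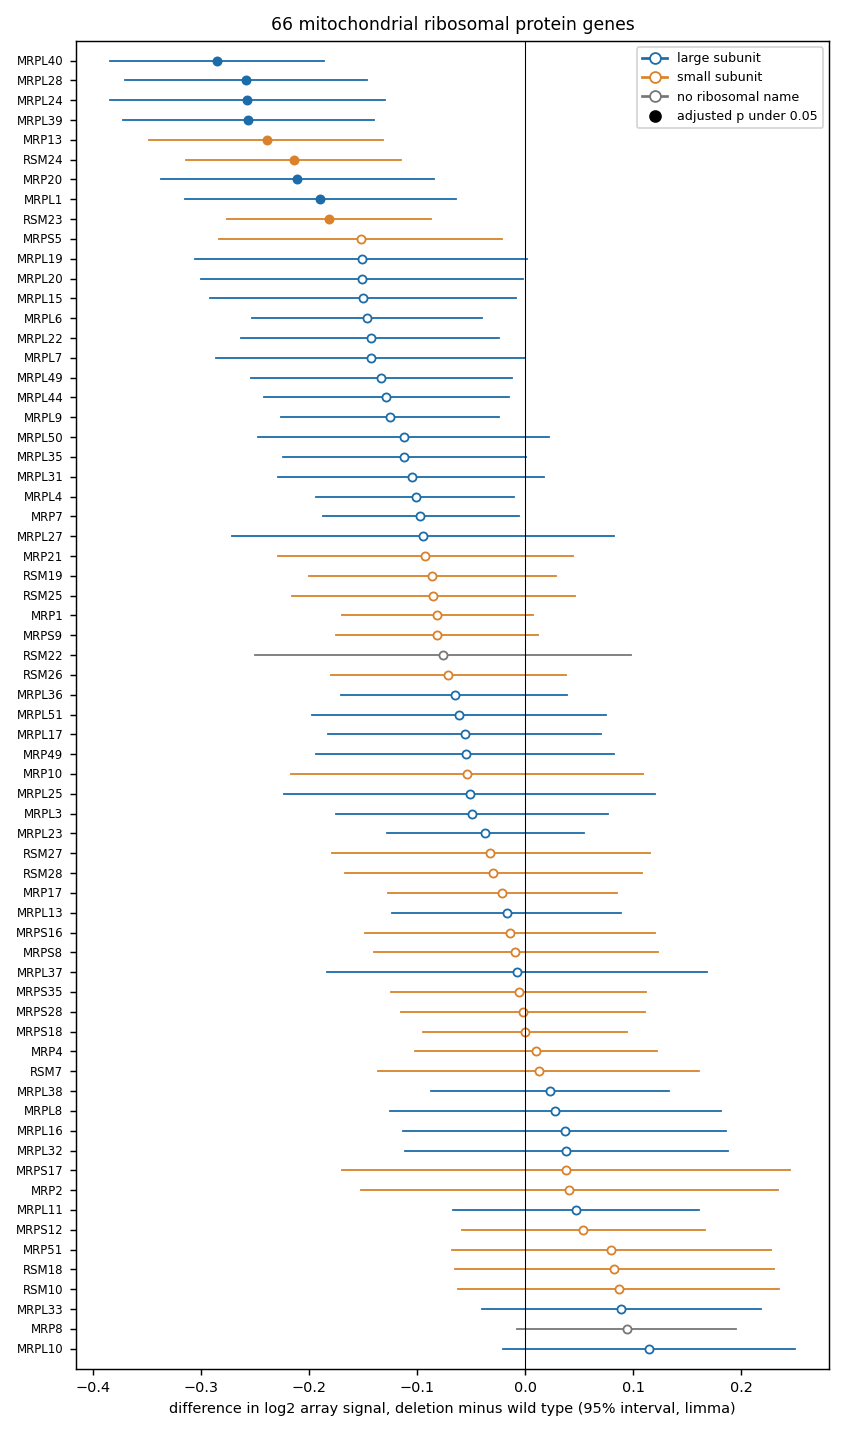
Difference (log2, deletion minus wild type) of each of the 66 genes with its 95% confidence interval from limma, the lowest at the top, coloured by annotated subunit, with filled points for genes that passed the threshold. The 9 that passed all lie below 0, as do 49 of the 66 points.

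Large subunit genes made up 6 of the 9 that fell. MRPL40 (YPL173W), whose protein is uL24m, had the largest difference. Its signals were 11.52, 11.50 and 11.59 on deletion arrays, against 11.83, 11.83 and 11.80 on wild-type arrays, with no overlap (difference -0.29, SE 0.04, limma adjusted p = 0.00368), or 82.1% of the wild-type signal. In this nomenclature, L or S gives the subunit, u marks a protein family shared by all ribosomes, b a family shared with bacteria, and m in front a protein found in mitochondria alone.

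MRPL28 (YDR462W, mL40), a mitochondria-specific protein, had 11.16, 11.22 and 11.28 on deletion arrays, against 11.51, 11.49 and 11.43 on wild-type arrays (difference -0.26, SE 0.05, limma adjusted p = 0.00896). MRPL39 (YML009C), the counterpart of bacterial bL33, had 11.92, 11.99 and 12.07 on deletion arrays, against 12.27, 12.23 and 12.26 on wild-type arrays (-0.26, SE 0.05, limma adjusted p = 0.0107). In both, the highest deletion array was below the lowest wild-type array. MRPL40, MRPL28 and MRPL39 were called lower under all 15 alternatives. MRPL24 (YMR193W), the counterpart of bacterial bL28, fell as far, with 11.28, 11.34 and 11.44 on deletion arrays, against 11.63, 11.63 and 11.57 on wild-type arrays (-0.26, SE 0.05, limma adjusted p = 0.0148). Its adjusted p was 0.0621 without deletion array 2 and 0.0540 without wild-type array 2.

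The other large subunit calls were less firm. MRP20 (YDR405W) encodes uL23m, a protein at the exit of the tunnel through which the nascent chain leaves. It had 11.13, 11.16 and 11.19 on deletion arrays, against 11.42, 11.42 and 11.27 on wild-type arrays (difference -0.21, SE 0.05, limma adjusted p = 0.0293). MRPL1 (YDR116C) encodes uL1m, the protein of the mobile stalk beside the exit site of transfer RNA. It had 11.94, 12.02 and 12.04 on deletion arrays, against 12.21, 12.25 and 12.11 on wild-type arrays (-0.19, SE 0.05, limma adjusted p = 0.0404). Neither gene overlapped between strains, but both calls held without wild-type array 3 and were lost without any of the other arrays, with adjusted p up to 0.0944 for MRP20 and 0.119 for MRPL1. MRPL1 was also lost in the fit paired by replicate number (replicate block, adjusted p = 0.0569).

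The small subunit gave 3 lower genes, each of a protein specific to mitochondria. MRP13 (YGR084C, mS44) had 11.89, 11.95 and 11.99 on deletion arrays, against 12.23, 12.16 and 12.15 on wild-type arrays (difference -0.24, SE 0.05, limma adjusted p = 0.0107). RSM24 (YDR175C, mS35) had 11.87, 11.87 and 11.86 on deletion arrays, against 12.13, 12.08 and 12.03 on wild-type arrays (-0.21, SE 0.04, limma adjusted p = 0.0116). RSM23 (YGL129C, mS29), the yeast counterpart of the human GTP-binding protein DAP3, had 11.49, 11.50 and 11.55 on deletion arrays, against 11.72, 11.71 and 11.66 on wild-type arrays (-0.18, SE 0.04, limma adjusted p = 0.0178). In all 3 genes, every deletion array was below every wild-type array. Without deletion array 2 the adjusted p of RSM24 was 0.0510 and that of RSM23 was 0.0761, and without wild-type array 2 that of RSM23 was 0.0615. Across the 9 genes the signal in the deletion strain was lower by 11.8% to 17.9%.

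**Figure D2:**
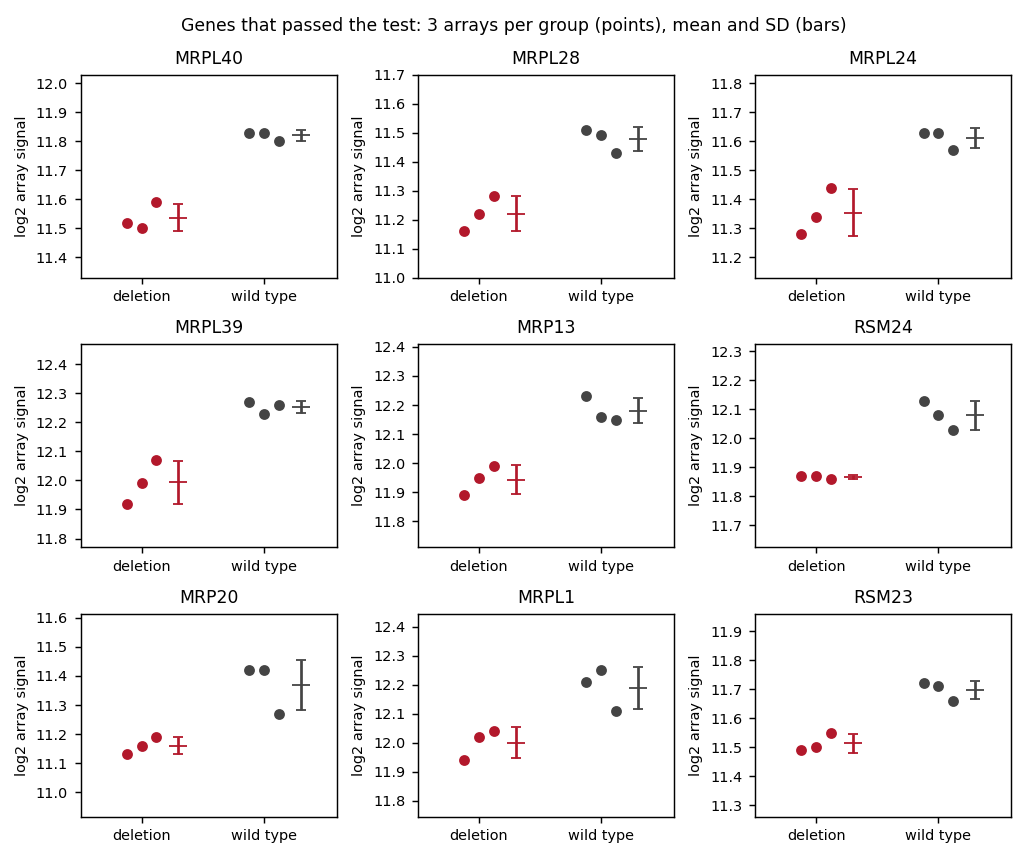
Log2 signal of the 9 genes that fell, 1 panel each, on the 3 deletion arrays (left) and the 3 wild-type arrays (right), with the mean and SD of each group beside the points. In every panel the deletion points lie below the wild-type points, and the group means differ by 0.18 to 0.29.

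At the other end of the range, the largest positive differences did not pass. MRPL10 (YNL284C), which encodes uL15m, had 12.30, 12.34 and 12.49 on deletion arrays, against 12.29, 12.27 and 12.24 on wild-type arrays (0.12, 95% confidence interval -0.02 to 0.25, limma adjusted p = 0.183). MRP8 (YKL142W), the gene of unknown function, had 12.93, 13.01 and 12.95 on deletion arrays, against 12.83, 12.91 and 12.86 on wild-type arrays (0.09, limma adjusted p = 0.151). These were the 2 genes without overlap in which the deletion arrays lay above. MRPL33 (uL30m) had a difference of 0.09 (limma adjusted p = 0.270), with 11.44, 11.46 and 11.54 on deletion arrays, against 11.47, 11.33 and 11.37 on wild-type arrays. The small subunit genes RSM10 (uS10m) and RSM18 (bS18m) had differences of 0.09 and 0.08 (limma adjusted p = 0.346 and 0.369), with deletion array 3 the highest of all 6 arrays in each. The other 2 large subunit genes with MRP symbols did not pass either. MRP7 encodes bL27m, of a family that lies near the peptidyl transferase centre. It had 11.54, 11.58 and 11.57 on deletion arrays, against 11.63, 11.66 and 11.68 on wild-type arrays (-0.10, 95% confidence interval -0.19 to -0.01, limma adjusted p = 0.109). MRP49 (mL61) overlapped between strains, with 11.54, 11.62 and 11.72 on deletion arrays, against 11.73, 11.69 and 11.63 on wild-type arrays (-0.06, limma adjusted p = 0.522). Among the 57 genes that did not pass, the median half-width of the 95% confidence interval was 0.13, so shifts of that size could not be resolved gene by gene.

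The MRPL genes had a lower median difference than the other symbols. Of 34 MRPL genes, 5 fell (14.7%) and 27 were below 0, with a median of -0.10. Of the 32 MRPS, MRP and RSM genes, 4 fell (12.5%) and 22 were below 0, with a median of -0.03. Both shares of lower calls were close to each other and near the 9.82% of all probe sets. By prefix, 0 of 9 MRPS genes fell (median -0.01), 2 of 12 MRP genes (median -0.06) and 2 of 11 RSM genes (median -0.07), and 0 of any prefix rose. Placing genes by annotated structure left the picture much the same: 6 of 37 large subunit genes fell, with a median of -0.10 and 30 below 0, and 3 of 27 small subunit genes fell, with a median of -0.02 and 18 below 0. These medians are descriptions without a test, since genes of 1 ribosome measured on the same arrays are not replicates. The signals of the groups did not overlap, with the deletion strain lower, for 16 of 37 large subunit genes and 6 of 27 small subunit genes, against 18.1% of all probe sets. They did not overlap, with the deletion strain higher, for 1 of 37 and 0 of 27, against 26.7% of all probe sets. The median of the MRPS, MRP and RSM genes was 0.01 without deletion array 1 and -0.11 without the 3 arrays of high 25S signal. The corresponding MRPL medians were -0.07 and -0.16, so the MRPL median was the lower of the 2 in both cases.

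**Figure D3:**
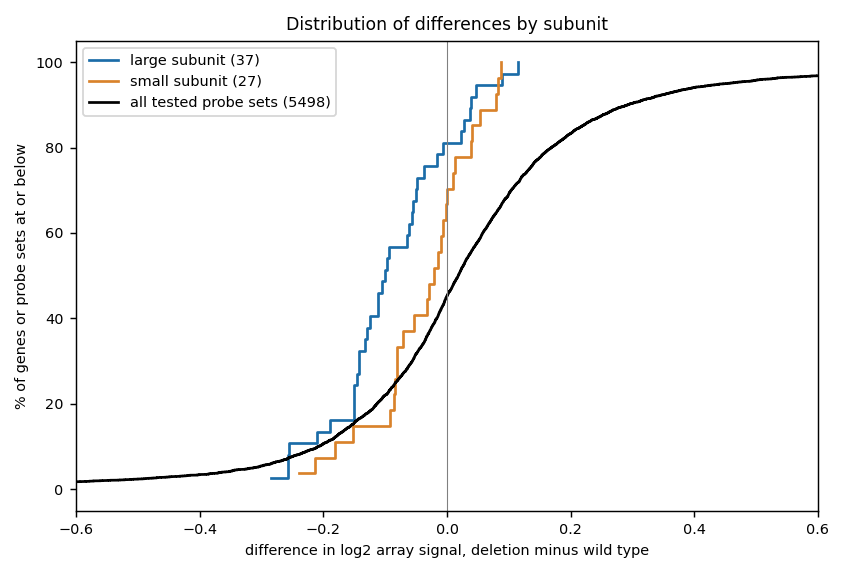
Cumulative percent of genes or probe sets (vertical axis) at or below each difference (horizontal axis, log2, deletion minus wild type) for the 37 large subunit genes, the 27 small subunit genes and the 5498 probe sets tested; the axis ends at -0.6 and 0.6. The medians are -0.10 for large and -0.02 for small subunit genes, against 0.02 over all genes.

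Grouped by the evolutionary family of their proteins, a property that the name rule did not use, the genes gave shares of lower calls of 16.7% (mitochondria-specific), 15.4% (shared with bacteria) and 11.1% (shared by all ribosomes), near the 9.82% of all probe sets. All 24 genes of mitochondria-specific proteins had a difference below 0, against 45.2% of all genes. Their differences ran from -0.26 to -0.01, with a median of -0.08, and 4 of them fell. The signs were not all stable: under some alternative settings several of the 24 had differences above 0, up to 0.05. Among 13 genes of the families shared with bacteria, 9 were below 0 and 2 fell (median -0.07). Among 27 genes of the families shared by all ribosomes, 15 were below 0 and 3 fell (median -0.01). In this last class the 15 large subunit genes had a median of -0.13 and 3 fell, while the 12 small subunit genes had a median of 0.01 (5 below 0) and 0 fell. In the families shared with bacteria, the 8 large subunit genes had a median of -0.10 and 2 fell, while the 5 small subunit genes had a median of -0.01 and 0 fell. The mitochondria-specific genes had medians of -0.08 in both subunits, with 1 of 14 large subunit genes and 3 of 10 small subunit genes lower. The families were looked at with the values known and were not tested.

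The deletion arrays stood in nearly the same order for most of these genes. Deletion array 1 was the lowest of the deletion arrays in 58 of the 66 genes (87.9%, against 44.2% of all genes), and deletion array 3 was the highest in 61 (92.4%, against 40.8%). The wild-type arrays were less regular: array 1 was the highest of its group in 35 genes (53.0%) and array 3 the lowest in 42 (63.6%). The median deviation of the 66 genes from their own means was -0.10, -0.04 and 0.05 on deletion arrays 1, 2 and 3, against 0.05, 0.04 and 0.01 on wild-type arrays 1, 2 and 3. Deletion array 3 therefore lay among the wild-type arrays for the median of these genes, and the arrays with the lowest values were deletion 1 and deletion 2. The medians over all genes ran from 0.01 to 0.02 on deletion arrays, against -0.02 to 0.00 on wild-type arrays. Within each strain the order of the array medians was that of the 25S signal given above. With that signal as a covariate, 9 genes were again called lower, where 7.97% of all probe sets were lower. Leaving out the 3 arrays of high signal keeps 1 deletion and 2 wild-type arrays, and the median difference of the 66 genes was then -0.12. The gap between subunits was also read on each array, as a description without a test. The median deviation of large minus small subunit genes was -0.03, -0.03 and -0.02 on deletion arrays 1, 2 and 3, against 0.03, 0.03 and 0.01 on wild-type arrays, so the strains did not overlap in it.

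**Figure D4:**
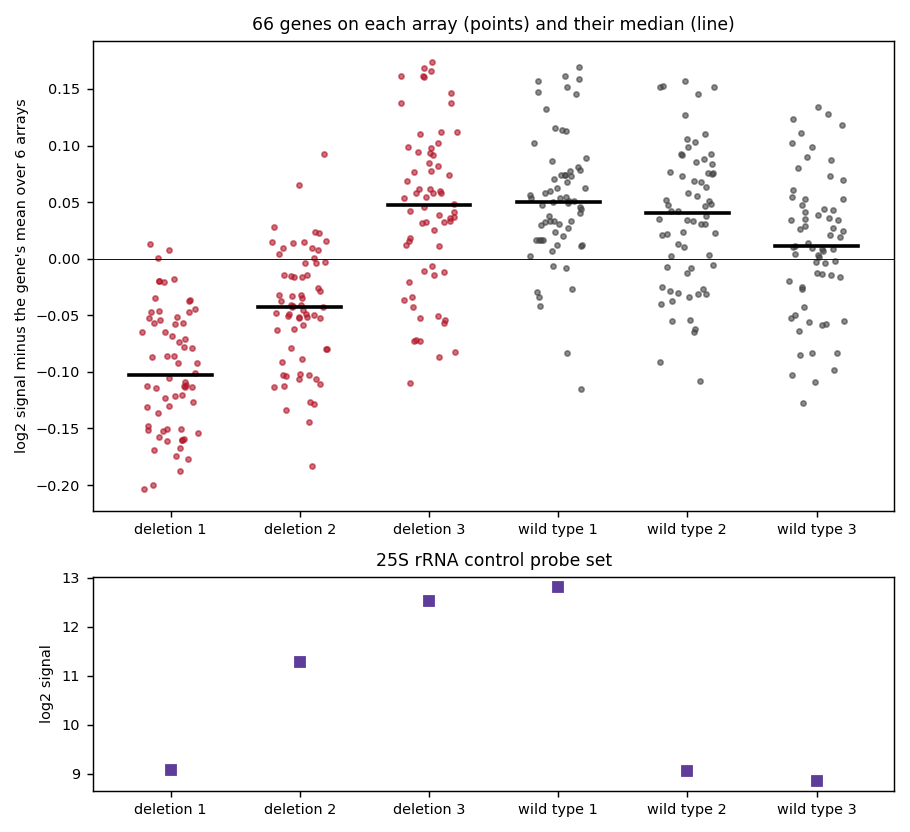
Upper panel, log2 signal of each of the 66 genes minus its mean over the 6 arrays (points) with the median of each array (line), deletion arrays left of wild-type arrays. Lower panel, log2 signal of the 25S control on the same arrays. The medians are lowest on deletion arrays 1 and 2, at -0.10 and -0.04, and the 25S signal is highest on wild-type array 1, at 12.81.

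Of 17 measured genes beside the 9 lower ones in the gene order of the R64 assembly, 2 were lower (11.8%, against 9.82% of all probe sets), 0 were higher and the median difference was -0.01. The lower ones, named after their values were seen, were GCD2, a subunit of the translation initiation factor eIF2B beside MRP13 (-0.18, limma adjusted p = 0.0344, up to 0.125 when 1 array was left out), and HMO1, a high-mobility-group protein known for its part at ribosomal genes, beside RSM24 (-0.24, limma adjusted p = 0.00746).

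In 6 lists of other genes for the expression of the mitochondrial genome, 7 of 66 measured genes were lower (10.6%, against 9.82% of all probe sets) and 2 were higher (3.03%, against 15.8%). The lower count was 3 without deletion array 1, where the lower share of all probe sets did not fall. It was 2 without deletion array 2 (5.17% of all probe sets) and 3 without wild-type array 2 (5.69%). With 1 array left out, the higher count ran from 0 to 5. It was 0 without deletion array 2 (9.22% of all probe sets higher) or deletion array 3 (9.73%), and 5 without deletion array 1 (15.9%). Of 13 measured ribosomal proteins listed by hand as outside the name rule, 1 fell and 0 rose, with a median of 0.00; the RefSeq table gives 14 such genes, with the same 1 lower and a median of -0.03. It was YML6, which encodes uL4m of the large subunit, at 11.25, 11.30 and 11.39 on deletion arrays, against 11.53, 11.51 and 11.66 on wild-type arrays (-0.26, limma adjusted p = 0.0215, up to 0.0776 when 1 array was left out). VAR1, the ribosomal protein of the mitochondrial genome itself, and the other genes of that genome were not analysed here.

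Among 7 genes of mitochondrial transcription and RNA processing, 3 fell (42.9%, against 9.82% of all probe sets) and 0 rose (against 15.8%). RPM2, the protein part of mitochondrial RNase P, had 11.58, 11.41 and 11.40 on deletion arrays, against 11.79, 11.97 and 11.83 on wild-type arrays (-0.40, limma adjusted p = 0.00791). DSS1, the exonuclease of the mitochondrial RNA degradosome, fell by 0.28 (limma adjusted p = 0.00810). RPO41, the mitochondrial RNA polymerase, fell by 0.24 (limma adjusted p = 0.0167, and 0.0588 to 0.0691 without deletion array 2, deletion array 3 or wild-type array 2). Of 13 mitochondrial aminoacyl-tRNA synthetases, 15.4% fell and 7.69% rose, against 9.82% and 15.8% of all probe sets. SLM5 for asparagine (-0.25) and MSY1 for tyrosine (-0.22) fell and MSR1 for arginine rose (0.20), with limma adjusted p of 0.0476, 0.0342 and 0.0258. Each of these 3 calls was lost when 1 of several arrays was left out, with adjusted p up to 0.142, 0.115 and 0.0764. OXA1, which inserts mitochondrially made proteins into the inner membrane, was the 1 of 10 assembly and docking genes that fell (-0.15, limma adjusted p = 0.0483, up to 0.148 with 1 array left out). CBS1, a translational activator of the cytochrome b message, was the 1 of 15 activators that rose (6.67%, against 15.8% of all probe sets). Its difference was 0.19 (limma adjusted p = 0.0186, up to 0.0700 with 1 array left out). The fit with a replicate block also lost MSY1 (0.0630) and OXA1 (0.0503). Of 8 translation factors, 0 passed in either direction.

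Of 34 nuclear genes of the respiratory chain and ATP synthase, 11 rose (32.4%, against 15.8% of all probe sets) and 0 fell (against 9.82%). Of the 34, 2 were below 0 (5.88%, against 45.2% of all genes), and the median was 0.12. Succinate dehydrogenase, whose subunits are all nuclear-encoded, accounts for 2 of the 11. Of the 30 genes of the other complexes, which also hold products of mitochondrial ribosomes, 9 rose and 0 fell, with a median of 0.12. SDH3, a membrane anchor of succinate dehydrogenase, had 12.90, 12.97 and 12.95 on deletion arrays, against 12.62, 12.61 and 12.51 on wild-type arrays (0.36, limma adjusted p = 0.00224). SDH2, the iron-sulfur subunit of the same enzyme, rose by 0.31 (limma adjusted p = 0.00392), and COX13, a subunit of cytochrome c oxidase, by 0.27 (limma adjusted p = 0.00626). The count of 11 was 4 without deletion array 2, where 9.22% of all probe sets were higher. The count was also 4 without deletion array 3 (9.73% of all probe sets), 7 without wild-type array 1 (14.0%) and 6 without wild-type array 2 (11.3%). Without the 3 arrays of high 25S signal, which leaves 1 deletion array, the differences of SDH3, SDH2 and COX13 were 0.34, 0.24 and 0.23. Cytosolic ribosomal protein genes had a median difference of 0.00. Of 128, 3 fell (2.34%, against 9.82% of all probe sets) and 0 rose (against 15.8%). The 3 were RPS9A (-0.51), RPL22B (-0.34) and RPS22B (-0.24), each with a similar paralog whose RNA may share its probes. With 1 array left out, RPL22B reached an adjusted p of 0.111 and RPS22B one of 0.0776.

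**Figure D5:**
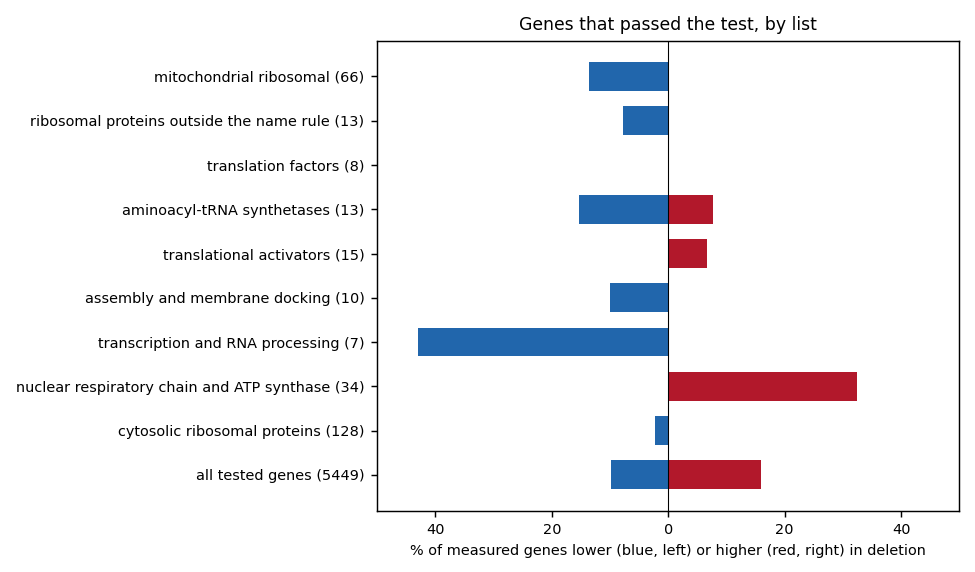
Percent of the measured genes of each list that passed the threshold, lower in the deletion strain to the left of 0 and higher to the right. Mitochondrial ribosomal genes have a bar of 13.6% on the lower side alone and genes of the respiratory chain one of 32.4% on the higher side alone, against 9.89% and 15.9% of all genes.

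Among 8 regulators of mitochondrial genes, HAP4 fell and HAP2 rose (12.5% each, against 9.82% lower and 15.8% higher of all probe sets). HAP4, the activating subunit of the CCAAT-binding factor that drives respiratory genes, had 11.44, 11.32 and 11.28 on deletion arrays, against 11.71, 12.04 and 12.06 on wild-type arrays (-0.59, SE 0.10, limma adjusted p = 0.00715). HAP2, a DNA-binding subunit of the same factor, had 10.87, 10.86 and 10.86 on deletion arrays, against 10.62, 10.61 and 10.52 on wild-type arrays (0.28, limma adjusted p = 0.00458). Neither gene overlapped between strains. PUF3, named here for its role, encodes an RNA-binding protein that binds messages of mitochondrial ribosomal proteins. It had 8.12, 8.03 and 7.96 on deletion arrays, against a mean of 8.10 on wild-type arrays, a difference that did not pass (-0.07, limma adjusted p = 0.496).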

How the data were processed

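The values are log2 probe set signals deposited by the authors, 1 column for each of 6 arrays. They were made with GCRMA, which adjusts background by probe sequence, and GCOS 1.1 and limma were also used, per the submitters' processing notes; they state no order of steps. That the log base is 2 is an inference from their range, since no source used here states it. RNA was selected for polyadenylation before labelling, per the labels' protocols. Further normalization was left to the alternatives. Array number, 3 per strain, limits the precision. The p-values measure the spread between these cultures.

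The platform's annotation table pairs 7244 of the 10928 probe sets with 1 symbol and 3683 with none. The 5498 of S. cerevisiae went into 1 fit of R 4.3.3's limma package, version 3.58.1, using lmFit and eBayes with strain as the sole term; tests were two-sided and adjusted by Benjamini-Hochberg over all of them. For genes with several probe sets the brightest was taken. Background was the 95th percentile of 1746 Schizosaccharomyces pombe probe sets on each array. The fit was also run on simulated data in which probe sets varied independently of each other. Shifts of an array shared by many genes, as described above, were not simulated. Figures were drawn with matplotlib 3.10.9.

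The genes, lists, families and tests were chosen with earlier results of these data known. Named were all genes of the mitochondrial ribosome that passed, the 5 with the largest positive differences, MRP7, MRP8, MRP20 and MRP49, and up to 3 passing genes of each other list. The genes flanking the lower ones and PUF3 were named outside that rule. Subunit and family came from the RefSeq R64 table; it also gave the order of neighbouring genes, and none of its coordinates are printed, since the genome build behind the probes is unstated in the labels and headers.

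Replicate numbers are shared by the strains. Deviations from the group means correlated at 0.351, 0.213 and 0.112 between arrays numbered 1, 2 and 3, all above the threshold of 0.1 for pairs. Other pairs of arrays reached 0.183 and 0.161, more than the arrays numbered 3. The deviations of the 3 arrays of a strain sum to 0, which ties these correlations together, so they cannot decide whether the arrays were paired. No block is stated in the design, so the fit without it is the one reported and the block is among the alternatives.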

Additional observations from a re-analysis of the deposited data

How the results depend on the processing

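The settings were each array left out, a replicate block, further quantile normalization, median centring, a filter on background, an intensity trend, all probe sets of the array, the mean of a gene's probe sets, leaving out the 3 arrays of high 25S signal, and, added after seeing the data, that signal as a covariate. Mitochondrial ribosomal genes called lower numbered 9, where 9.82% of yeast probe sets were lower. With 1 array left out they numbered 4 to 9, while the share of yeast probe sets ran from 5.17% to 10.2%. The count did not always follow the share. It stayed at 9 without deletion array 3 (5.91%) or wild-type array 3 (6.57%), and was 7 without wild-type array 1 (10.2%). Mitochondrial ribosomal genes called lower numbered 8 with the replicate block (MRPL1 lost), although the share of yeast probe sets rose there. After quantile normalization or centring they numbered 13 (13.2% and 12.9% of yeast probe sets). Over all probe sets of the array they numbered 6, where 5.71% of yeast probe sets were lower. MRP20, MRPL1 and RSM23 were lost there, at 0.0769, 0.103 and 0.0680. In these last 3 settings the count moved in the same direction as the share. Without the high 25S arrays the median difference of these genes was -0.12. That setting keeps 1 deletion array, assumed to vary like the others. The median of MRPS, MRP and RSM genes ran from -0.08 to 0.01 with 1 array left out, and was -0.11 without the high 25S arrays. Counts for the other lists follow, with the share of yeast probe sets called in the same direction in brackets. In the 6 lists of mitochondrial gene expression, lower calls (7) ran from 2 without deletion array 2 (5.17%) to 9 without wild-type array 3 (6.57%). They were 15 after quantile normalization (13.2%), 18 after centring (12.9%) and 3 over all probe sets (5.71%). Higher calls there (2) ran from 0 without deletion array 2 (9.22%) or deletion array 3 (9.73%) to 5 without deletion array 1 (15.9%). They were 1 after quantile normalization (13.1%), 0 over all probe sets (10.1%) and 1 with the covariate (13.5%). Respiratory chain calls higher (11) ran from 4 without deletion array 2 (9.22%) or deletion array 3 (9.73%) to 15 without deletion array 1 (15.9%). They were 7 after centring (12.8%), 5 over all probe sets (10.1%) and 6 with the covariate (13.5%). Lower calls among the respiratory chain genes numbered 1 after quantile normalization (13.2%). Beside MRPL1, MSY1 and OXA1, the replicate block changed the call of no named gene. Without the high 25S arrays the list genes YML6, MSY1, MSR1, CBS1, OXA1, RPM2, RPO41, SDH2, COX13 and HAP2 were not called, with adjusted p of 0.0528 to 0.459, nor were the neighbours GCD2 (0.520) and HMO1 (0.142). The cause of these shifts was not tested.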

Other observations

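The array also carries 46 probe sets for mitochondrial ribosomal protein genes of the fission yeast Schizosaccharomyces pombe, whose RNA was not in the samples. Of these, 44 were above background on no array and 2 on all 6.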
